A study of Mus musculus with 9 samples.

Results

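The cell's oxygen-sensing machinery was followed through 9 genes of the 46517 listed: the HIF alpha subunits Hif1a, Epas1 and Hif3a, their partner Arnt, the prolyl hydroxylases Egln1, Egln2 and Egln3, the asparaginyl hydroxylase Hif1an, and Vhl. They were chosen by gene symbol alone, and all 9 were found in the table. The RNA came from neutrophils of wild-type C57BL/6 mice carrying an orthotopic pancreatic ductal adenocarcinoma (OT mice), made by injecting a luciferase-expressing cell line into the pancreas. That line derives from KPC mice, a genetically engineered model of pancreatic cancer that uses PDX-cre. On day 27, live (Dapi-) CD45+ cells that lacked the lineage markers CD3, B220 and NK1.1 and carried Ly6G and Ly6C were sorted from the bone marrow (labelled Ly6G.hi), the blood and the tumor (both labelled Ly6G+), 3 libraries from each compartment and 9 in all. Each library came from a pool of OT mice, so the mice of a pool cannot be separated, and all 3 compartments came from tumor-bearing animals. No library from mice without a tumor was analysed here.

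HIF alpha subunits are made and destroyed continuously where oxygen is plentiful. The EGLN enzymes (PHD proteins) use oxygen to hydroxylate prolines of the alpha subunit, VHL binds the hydroxylated protein, and the ubiquitin ligase built around VHL marks it for the proteasome. HIF1AN (also called FIH) hydroxylates an asparagine and so blocks the recruitment of the coactivators CBP and p300. Where oxygen is scarce these steps slow down, the alpha subunit pairs with ARNT, and the dimer binds short DNA elements with the core ACGTG or GCGTG. In neutrophils HIF-1α is known for sustaining glycolysis and survival, and Egln3 is itself a classical hypoxia-induced gene. Much of this control acts on the protein, and the libraries measured RNA only.

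The promoters of 4 of these genes are shown because 3 of them (Hif1a, Egln1 and Egln3) had more RNA in the tumor than in the bone marrow, and the fourth (Egln2) did not. Each is the 250 bases before the RefSeq transcription start on GRCm38.p6, and capitals mark every ACGTG or GCGTG core on either strand. In Hif1a, 2 of the 3 cores overlap as the palindrome CACGTG, 1 on each strand.
Hif1a, chr12:73907617-73907866, plus strand: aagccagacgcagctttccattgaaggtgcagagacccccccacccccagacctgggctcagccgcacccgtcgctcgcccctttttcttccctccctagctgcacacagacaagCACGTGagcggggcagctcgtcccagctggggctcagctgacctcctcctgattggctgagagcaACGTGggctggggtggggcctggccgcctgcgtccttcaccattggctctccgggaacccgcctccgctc
Egln1, chr8:124949255-124949504, minus strand: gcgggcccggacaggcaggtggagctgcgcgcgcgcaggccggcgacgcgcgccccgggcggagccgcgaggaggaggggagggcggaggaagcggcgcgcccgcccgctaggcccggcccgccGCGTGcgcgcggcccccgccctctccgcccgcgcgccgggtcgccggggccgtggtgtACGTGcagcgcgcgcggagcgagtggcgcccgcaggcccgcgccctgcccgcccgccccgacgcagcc
Egln2, chr7:27166803-27167052, minus strand: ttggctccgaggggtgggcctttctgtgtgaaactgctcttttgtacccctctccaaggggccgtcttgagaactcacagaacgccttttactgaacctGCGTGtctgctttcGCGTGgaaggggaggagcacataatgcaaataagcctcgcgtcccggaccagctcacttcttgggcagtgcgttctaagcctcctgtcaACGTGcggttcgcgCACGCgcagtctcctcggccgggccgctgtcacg
Egln3, chr12:54203875-54204124, minus strand: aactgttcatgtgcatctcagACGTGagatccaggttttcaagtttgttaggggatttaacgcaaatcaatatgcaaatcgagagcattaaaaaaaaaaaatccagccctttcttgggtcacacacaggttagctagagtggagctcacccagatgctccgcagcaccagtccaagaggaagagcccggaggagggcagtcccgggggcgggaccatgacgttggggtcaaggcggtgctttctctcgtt
RefSeq gave a promoter for 8 of the 9 genes. Hif1a held 3 ACGTG cores, the nearest 70 bases before the start. Egln3 held 1 ACGTG, 229 bases before the start, and Egln1 held 1 ACGTG and 1 GCGTG at 68 and 126 bases. Egln2 held the most, 1 ACGTG and 3 GCGTG, and a second RefSeq start of the gene held 1 GCGTG. Hif3a held 2 GCGTG and Arnt 1, while neither letter string was in the windows of Hif1an and Vhl. Such short cores are common: of 32851 promoters of the same length, 16.6% held ACGTG, 28.2% held GCGTG and 38.6% held either. A match is a description of the letters, not of a bound site.

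Between 4580807 and 7949367 reads per library were recovered from the deposited values. Libraries of 1 compartment correlated with Pearson r of 0.905 to 0.963 and differed by more than counting noise, so none was treated as a second copy of another. This does not show that they came from independent samples. All 10 neutrophil markers were detected in every library, but their sum was 11804 to 15035 RPM (recovered reads scaled to library size) in tumor against 42845 to 46567 in blood and 53333 to 57098 in bone marrow. The markers did not fall evenly. Il1r2 was at 2361 to 3543 RPM in tumor, 2569 to 3547 in blood and 1062 to 1176 in bone marrow. Csf3r overlapped between tumor (2240 to 3032 RPM) and bone marrow (2078 to 2836). The other listed markers were lowest in tumor. Tumor epithelium markers summed to 2742 to 5198 RPM in tumor (12 of 12 detected), 49.9 to 246 in blood (7 to 11 detected) and 64.1 to 65.2 in bone marrow (5 to 10 detected). Fibroblast markers summed to 1209 to 1389 RPM in tumor, 0.640 to 6.83 in blood and 6.73 to 12.7 in bone marrow, and acinar markers to 794 to 2950, 3.04 to 10.9 and 1.77 to 7.23, with 10 of 10 of each list detected in every tumor library. Macrophage markers were highest in blood (1494 to 1672 RPM, against 447 to 501 in bone marrow and 412 to 587 in tumor), as were platelet markers (802 to 1100 RPM, with 10.4 to 14.2 in bone marrow), red cell markers (292 to 605 and 35.3 to 82.5) and lymphocyte markers (108 to 183 and 25.3 to 58.2). Precursor markers were highest in bone marrow (87922 to 100831 RPM). In sorted bulk samples such as these, fewer cells of a type and less RNA per cell cannot be told apart. The scaling of the libraries also matters: the median log2 difference of all genes tested was 0.32 in tumor over blood, 0.09 in tumor over bone marrow and -0.11 in blood over bone marrow. With plain library totals these medians were 0.76, 0.54 and -0.11, so shifts of the genes below are also given relative to the median.

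The transcripts that rose most clearly in the tumor libraries were those of Egln3, and Epas1 and Egln1 were also higher there. Hif1a was higher than in bone marrow, whereas its narrow call over blood was lost in most alternative fits. Hif1an was lower, though neither of its calls passed with plain library totals. Of the 8 members that could be tested, 4 were higher and 2 lower in tumor than in blood (limma, Benjamini-Hochberg adjusted p under 0.05 over 13014 genes). Among all genes tested, 66.3% passed in this comparison, 39.2% higher and 27.1% lower. Against bone marrow 5 members were higher and 2 lower, beside 55.8% of all genes (30.0% higher and 25.8% lower). In blood against bone marrow 3 were higher and 0 lower, beside 42.5% of all genes (17.8% higher and 24.7% lower), and the 5 others did not pass. The 3 that were higher in blood (Hif1a, Arnt and Egln3) moved with the sums of its platelet, red cell, lymphocyte and macrophage markers, and the part of those cells was not tested. Of the 5 others, 1 (Vhl) would be lower at an unadjusted limma p under 0.05, and limma-voom also called 0 members lower. Hif3a was not tested, because only 2 libraries had at least 10 reads. Epas1, among the members higher in tumor in both comparisons, had at least 10 reads only in the 3 tumor libraries. The 6 of 8 and the 3 of 8 calls are near these backgrounds and the 7 of 8 against bone marrow lie above its background, which over 8 genes is a description only.

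**Figure D1:**
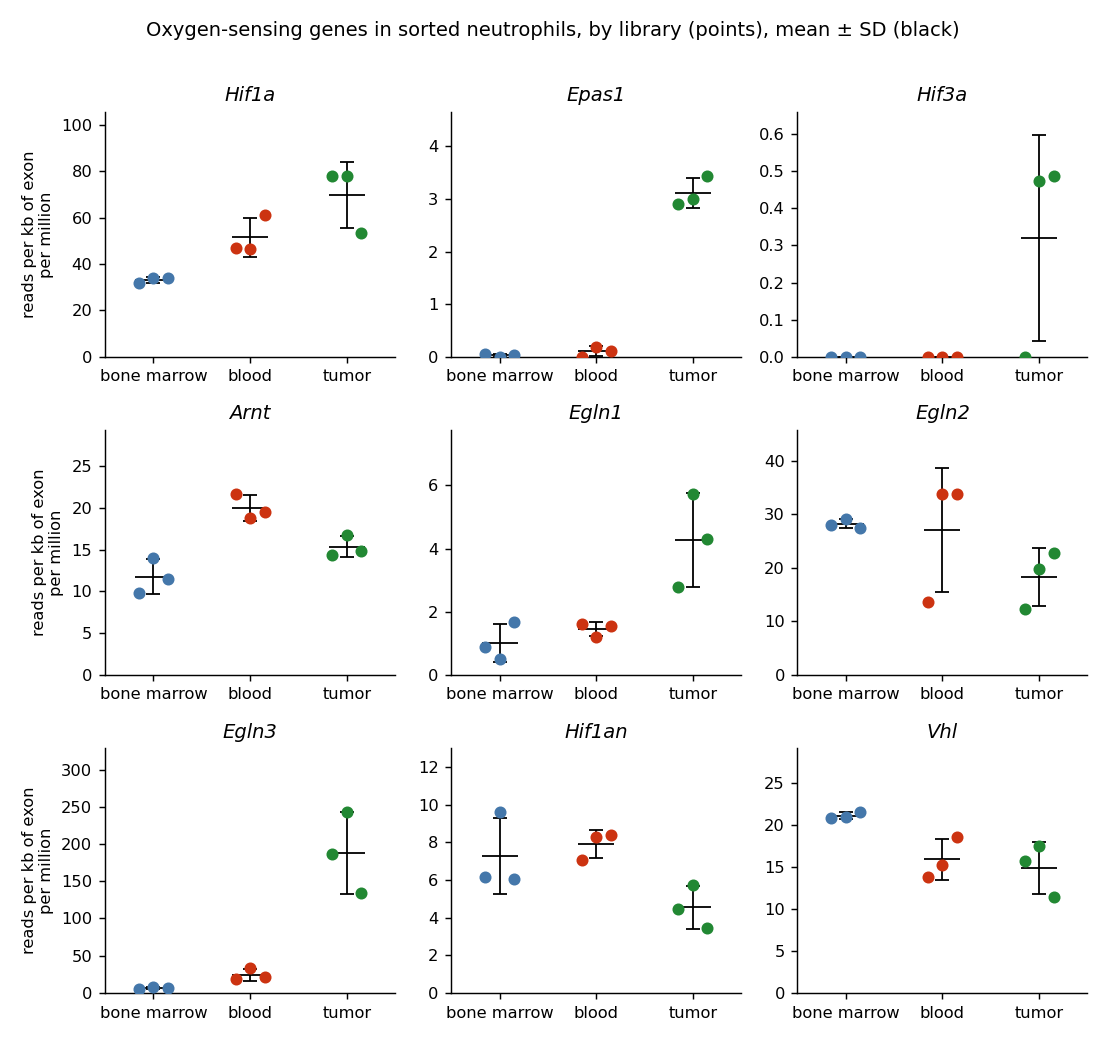
Exon RPKM (reads per kilobase of exon, scaled to library size, on linear axes starting at 0) of the 9 genes in each of the 9 libraries, grouped as bone marrow, blood and tumor; points are libraries and black bars the mean ± SD (n = 3). Egln3 reached 134 to 243 in tumor against at most 33.9 elsewhere, Hif1a increased from bone marrow to blood with tumor and blood overlapping, and Hif1an was lowest in the 3 tumor libraries.

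Hif1a, which encodes the alpha subunit HIF-1α (ENSMUSG00000021109.12, chr12:73901375-73947530, plus strand, GRCm38 with GENCODE M21 as for all positions of genes given here), was the dominant alpha subunit in every library. In reads per kilobase of exon, scaled to library size (exon RPKM), its level was 31.8, 34.1 and 33.9 in bone marrow, 46.8, 46.5 and 61.3 in blood, and 77.9, 78.2 and 53.3 in tumor. All blood and tumor libraries lay above all bone marrow libraries, whereas the third tumor library fell within the range of blood. Hif1a was 2.07-fold higher in tumor than in bone marrow (log2 difference 1.05 ± 0.17 SE, adjusted p = 3.4e-04, 0.96 above the median of all genes). It was 1.54-fold higher in blood than in bone marrow (log2 difference 0.62 ± 0.17 SE, adjusted p = 0.012). Both of these calls held in all 22 alternative fits. Between tumor and blood the log2 difference was 0.43 ± 0.17 (SE), a 1.34-fold change that passed the threshold narrowly (adjusted p = 0.042) and lay 0.11 above the median of all genes. That call held in 8 of 22 alternatives, and the difference turned to -0.36 with median centring. It was also lost when any of 7 of the 9 libraries was left out, all but the third of blood and the third of tumor (adjusted p from 0.057 to 0.14). An antisense gene, Gm15283, overlaps 330 exon bases of Hif1a and had 5 to 14 reads in bone marrow, 12 to 23 in blood, against 43 to 105 in tumor. Since the protocol does not mark the strand, reads in that overlap cannot be assigned to either gene, but Hif1a itself had 1090 to 3486 reads.

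Epas1, which encodes HIF-2α (ENSMUSG00000024140.9, chr17:86753700-86833410, plus strand), was nearly absent outside the tumor. It had 2, 0 and 1 reads in bone marrow, 0, 6 and 3 in blood, and 101, 127 and 153 in tumor. All 3 tumor libraries were far above the other 6, at 2.91 to 3.45 exon RPKM. Its summed RPM were 27.7-fold higher in tumor than in blood (95% counting interval 14.5 to 61.1, from 381 and 9 reads). Against the 3 reads in bone marrow the ratio was 111, with a counting interval of 37.7 to 541. The fitted differences, 5.86 ± 1.24 and 7.05 ± 1.24 on the log2 scale (SE), had adjusted p of 0.0018 and 6.6e-04 and passed in all 21 alternatives that kept the gene. Epas1 met the filter of 10 reads in 3 libraries only through its 3 tumor libraries. These p-values and their stability are therefore no separate support for its higher level there. Between blood and bone marrow the difference was 1.20 ± 1.24 (SE, adjusted p = 0.46), and 2.72 (adjusted p = 0.040) without the first blood library, which had 0 reads.

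Hif3a, which encodes the third alpha subunit (ENSMUSG00000004328.14, chr7:17031507-17062427, minus strand), had 0 reads in all 6 bone marrow and blood libraries and 0, 24 and 26 in tumor. The first tumor library thus did not differ from the other compartments. Against a floor of 3 reads per group, its summed tumor level exceeded that of blood at least 10.9-fold and that of bone marrow at least 14.6-fold. Of the summed alpha subunit RNA in tumor, Hif1a made up 93.1% to 96.4%, Epas1 3.60% to 6.02% and Hif3a at most 0.852%. In bone marrow and blood Hif1a made up 99.6% or more of it in every library.

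Epas1 rose in the libraries that also held the epithelial, fibroblast and acinar markers. It was highest in tumor library 3 (153 reads, 19.3 RPM), with 16.3 RPM in tumor library 1 and 16.8 in tumor library 2. Tumor library 3 also had the highest sums for epithelial (5198 RPM), fibroblast (1389 RPM) and acinar markers (2950 RPM). Epithelial and acinar sums were lower in tumor library 2 (2742 and 794 RPM) than in tumor library 1 (3511 and 1110 RPM), unlike Epas1. Fibroblast sums were 1322 RPM in tumor library 2 and 1209 RPM in tumor library 1. Endothelium is a cell type known for Epas1, and 10 of its 10 markers were detected in every tumor library, against 6 to 7 in blood and 4 to 7 in bone marrow. Cdh5 and Tek, which are defining for it, had 0 reads in blood and at most 3 in bone marrow, against 9 to 41 and 14 to 35 in tumor, and Emcn had at most 2 reads outside the tumor and 29 to 73 within. Pecam1, Kdr, Cldn5 and Tie1 were also highest in tumor. Esam did not follow, with 10.9 to 15.8 RPM in blood and 9.65 to 17.4 in tumor. Egfl7 overlapped between bone marrow (2.47 to 4.22 RPM) and tumor (3.84 to 8.69). The summed list was at 104 to 142 RPM in tumor and 114 to 168 in blood, where 65.0 to 108 RPM were from Vwf, a gene that platelets also carry. Among the tumor libraries the sum was lowest in the third (104 RPM), where Epas1 was highest. The part of the other cell types in the Epas1 and Hif3a reads was not tested.

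Arnt, the constitutive partner of the alpha subunits (ENSMUSG00000015522.17, chr3:95434388-95497240, plus strand), was highest in blood. Its levels were 9.80, 14.0 and 11.5 exon RPKM in bone marrow, 21.7, 18.8 and 19.5 in blood, and 14.4, 16.8 and 14.8 in tumor, with the 3 blood libraries above all others. Arnt was 1.71-fold higher in blood than in bone marrow (log2 difference 0.78 ± 0.14 SE, adjusted p = 0.0015), a call that held in 22 of 22 alternatives. Relative to bone marrow, the tumor libraries were 0.39 ± 0.14 higher on the log2 scale (SE, adjusted p = 0.037), but the value was -0.029 with median centring, and the call was lost without the first (0.27, adjusted p = 0.15) or the third bone marrow library (0.39, adjusted p = 0.084) and without the second (0.33, adjusted p = 0.11) or the third tumor library (0.42, adjusted p = 0.055). Relative to blood they were lower by -0.38 ± 0.14 (SE, adjusted p = 0.035), but the value was 0.065 with plain library totals and 0.038 with quantile normalization, and the call was lost without the first or the third blood library (adjusted p = 0.11 and 0.065) and without the first or the third tumor library (adjusted p = 0.095 and 0.077). The place of tumor neutrophils for Arnt therefore depends on the scaling, while the gain in blood over bone marrow does not.

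Egln3, which encodes PHD3 (ENSMUSG00000035105.5, chr12:54178981-54203860, minus strand), was the member with the largest well-measured change. Its level was 5.62, 8.37 and 6.22 exon RPKM in bone marrow, 18.2, 33.9 and 21.2 in blood, and 186, 243 and 134 in tumor, from 100 to 126, 191 to 504 and 2831 to 4900 reads. The compartments did not overlap: every blood library exceeded every bone marrow library, and every tumor library exceeded every blood library. Egln3 was 7.75-fold higher in tumor than in blood (log2 difference 2.95 ± 0.27 SE, adjusted p = 5.5e-06, 2.63 above the median of all genes). It was 27.4-fold higher in tumor than in bone marrow (log2 difference 4.78 ± 0.27 SE, adjusted p = 2.9e-07). The difference between blood and bone marrow was 3.54-fold (log2 difference 1.82 ± 0.27 SE, adjusted p = 3.7e-04). All 3 calls held in 22 of 22 alternatives, with log2 differences of 2.17 to 3.43 over blood. The tumor libraries also held the epithelial, fibroblast and acinar markers given above, and the part of those cells in the tumor value was not tested.

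Egln1, which encodes PHD2, regarded as the main oxygen sensor of most cells (ENSMUSG00000031987.5, chr8:124908587-124949324, minus strand), was scarce. It had 21, 10 and 40 reads in bone marrow, 23, 24 and 26 in blood, and 62, 156 and 123 in tumor, or 0.492 to 1.68, 1.20 to 1.62 and 2.78 to 5.74 exon RPKM. The tumor libraries did not overlap with either other compartment. Egln1 was 4.53-fold higher in tumor than in bone marrow (log2 difference 2.18 ± 0.48 SE, adjusted p = 0.0027), in all 21 alternatives. Over blood the difference was 2.83-fold (log2 difference 1.50 ± 0.48 SE, adjusted p = 0.017), but it did not pass with median centring (0.71, adjusted p = 0.20), quantile normalization (0.56, adjusted p = 0.32), without the second blood library (1.37, adjusted p = 0.053) or without the second tumor library (1.26, adjusted p = 0.070). Blood and bone marrow overlapped (log2 difference 0.68 ± 0.48 SE, adjusted p = 0.28).

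Egln2, which encodes PHD1 (ENSMUSG00000058709.10, chr7:27158658-27166802, minus strand), did not pass in any comparison with the deposited scaling and all 9 libraries. Its levels were 28.0, 29.1 and 27.4 exon RPKM in bone marrow, 13.6, 33.7 and 33.8 in blood, and 12.3, 19.7 and 22.8 in tumor. The first blood library was well below the other two, and the 3 tumor libraries lay below all 3 bone marrow libraries. The log2 difference between tumor and bone marrow was -0.67 ± 0.33 (SE, 95% interval -1.41 to 0.06, adjusted p = 0.11). It passed with median centring (-1.09, adjusted p = 0.015), with only the 2 compartments in the fit (adjusted p = 0.032) and without the first blood library, which changes the shared spread (adjusted p = 0.019). Between tumor and blood it was -0.50 ± 0.33 (SE, adjusted p = 0.21), with -0.93 (adjusted p = 0.0058) without the first blood library and -1.28 (adjusted p = 0.0054) with median centring. Between blood and bone marrow it was -0.17 ± 0.33 (SE, adjusted p = 0.71), and 0.26 without that library.

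The make-up of the prolyl hydroxylase RNA therefore differed between compartments. Summed over the 3 genes it amounted to 34.5 to 38.0 exon RPKM in bone marrow, 33.4 to 68.8 in blood, against 161 to 269 in tumor. Egln2 took 76.7% to 81.2% of that sum in bone marrow, 40.8% to 59.8% in blood, against 6.11% to 14.1% in tumor. Egln3 took 16.3% to 22.0%, 37.4% to 54.3% and 83.2% to 92.5%. Egln1 stayed at 1.30% to 4.85% in all 9 libraries. The leading gene was thus Egln2 in all 3 bone marrow libraries, Egln3 in all 3 tumor libraries, and either in blood. Shares of this kind do not depend on the library scaling, but they do depend on the exon lengths of the annotation.

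**Figure D2:**
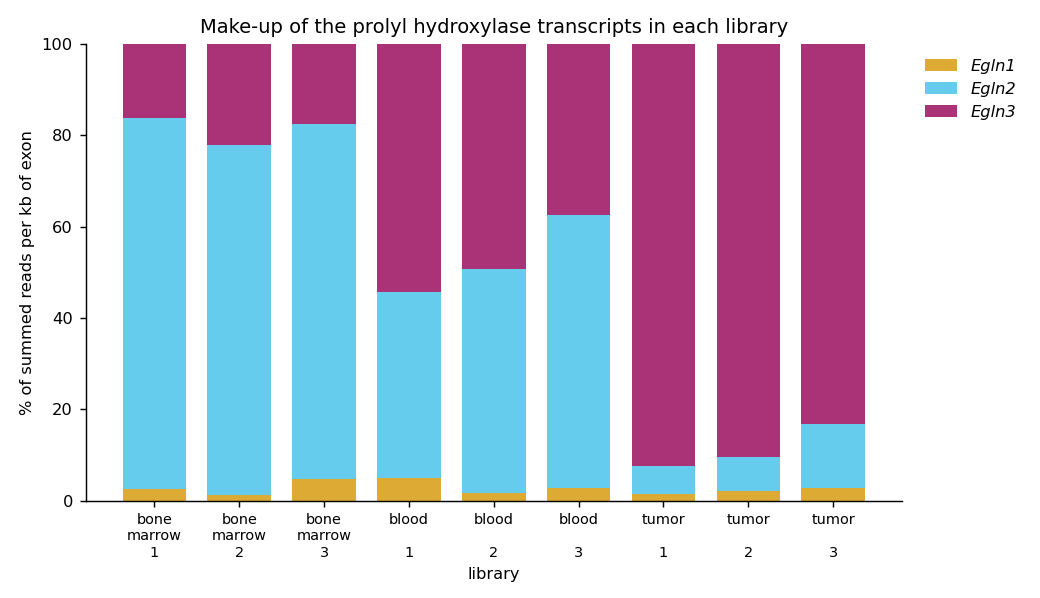
Share (%, axis from 0 to 100) of Egln1, Egln2 and Egln3 in the summed reads per kilobase of exon of the prolyl hydroxylases, 1 stacked bar per library. Egln3 took at most 22.0% in bone marrow, between 37.4% and 54.3% in blood and at least 83.2% in tumor.

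Hif1an (ENSMUSG00000036450.4, chr19:44562850-44576274, plus strand), the enzyme that restrains coactivator binding, was lower in tumor. Its levels were 6.18, 9.63 and 6.06 exon RPKM in bone marrow, 7.09, 8.29 and 8.39 in blood, and 4.46, 5.75 and 3.43 in tumor. The 3 tumor libraries lay below all 6 others, and bone marrow and blood overlapped. Hif1an was 1.78-fold lower in tumor than in blood (log2 difference -0.83 ± 0.23 SE, adjusted p = 0.0085), in 21 of 22 alternatives, the exception being plain library totals (-0.38, adjusted p = 0.11). Against bone marrow it was 1.60-fold lower (log2 difference -0.68 ± 0.23 SE, adjusted p = 0.027). That call did not pass in 6 of 22 alternatives, among them plain library totals (-0.23, adjusted p = 0.35) and the fits without the second bone marrow library (-0.46, adjusted p = 0.12), the first tumor library (-0.68, adjusted p = 0.061) or the third tumor library (-0.49, adjusted p = 0.099). Between blood and bone marrow the difference was 0.15 ± 0.23 (SE, adjusted p = 0.63).

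Vhl, the substrate-binding subunit of the ligase (ENSMUSG00000033933.12, chr6:113623959-113631633, plus strand), was highest in bone marrow. Its levels were 20.9, 20.9 and 21.6 exon RPKM in bone marrow, 13.8, 15.2 and 18.6 in blood, and 15.6, 17.4 and 11.5 in tumor. All bone marrow libraries lay above all others, and blood and tumor overlapped. Vhl was 1.44-fold lower in tumor than in bone marrow (log2 difference -0.53 ± 0.18 SE, adjusted p = 0.026), a call lost in 7 of 22 alternatives. These include plain library totals (-0.08, adjusted p = 0.71), quantile normalization (-0.47, adjusted p = 0.073) and the fits without any 1 of the bone marrow libraries (-0.54 to -0.51, adjusted p from 0.062 to 0.068) or without the third tumor library (-0.35, adjusted p = 0.076). In blood against bone marrow it was -0.42 ± 0.18 (SE, adjusted p = 0.080), and without the third tumor library, which changes the shared spread, the adjusted p was 0.032. Tumor and blood differed by -0.11 ± 0.18 (SE, 95% interval -0.50 to 0.28, adjusted p = 0.60), and median centring gave -0.90 (adjusted p = 0.0027) and plain library totals 0.34 (adjusted p = 0.086).

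**Figure D3:**
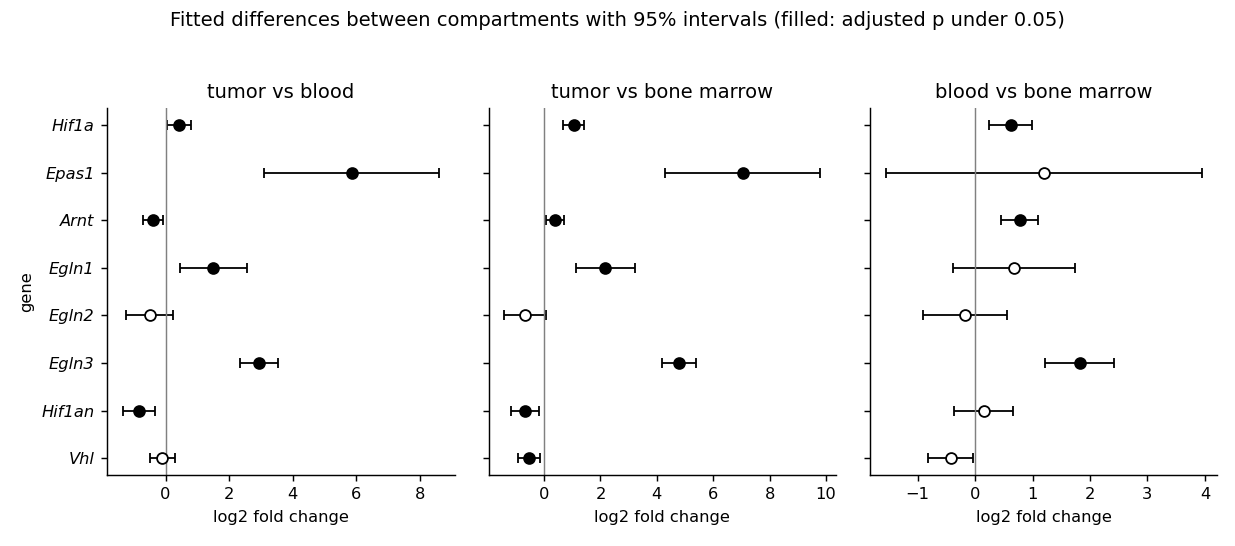
Log2 fold changes (x axis) of the 8 members tested in tumor over blood, tumor over bone marrow and blood over bone marrow, with 95% intervals from limma; filled points passed at an adjusted p under 0.05. Egln3 stands at 2.95, 4.78 and 1.82 with short intervals, and Epas1 at 5.86 and 7.05 with wide ones that reflect its few reads outside the tumor.

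The scaling question was set aside by taking differences between 2 genes of the same library. These differences are in log2 reads per kilobase of exon, with the constant added to the reads kept, and the library size cancels. They are not differences of the deposited log2 FPKM, whose length is the genomic span for most genes. Hif1a over Vhl was 0.61, 0.71 and 0.65 in bone marrow, 1.76, 1.61 and 1.72 in blood, and 2.31, 2.16 and 2.22 in tumor. This was the most even of the 7 pairs, with an SD of 0.050 to 0.076 (n = 3) against differences of 1.04 between blood and bone marrow and 0.54 between tumor and blood, and the 3 compartments did not overlap. Hif1a over Hif1an likewise went from 2.22 ± 0.35 in bone marrow to 2.69 ± 0.19 in blood, against 3.95 ± 0.18 in tumor (SD, n = 3), without overlap, although the highest bone marrow and the lowest blood library nearly touched (2.48 and 2.49). A scaling factor of the library cannot alter these orders.

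Relative to its partner, Hif1a stood at 1.51 ± 0.21 in bone marrow, 1.36 ± 0.28 in blood, against 2.17 ± 0.30 in tumor (log2 difference from Arnt per kilobase of exon, SD, n = 3). Tumor lay above both others, which overlapped. Hif1a over Egln1 was lower in tumor (4.07 ± 0.64) than in blood (5.14 ± 0.26), and overlapped with bone marrow (5.20 ± 0.88). Egln3 over Egln2 rose from -2.08 ± 0.26 in bone marrow to -0.09 ± 0.55 in blood, against 3.37 ± 0.72 in tumor, with no overlap between compartments. Egln3 over Egln1 was 2.87 ± 1.10, 4.02 ± 0.70 and 5.47 ± 0.56, with tumor above both others. Epas1 relative to Hif1a was -4.46 ± 0.45 in tumor, and near -10 in both others, where it rests on 0 to 6 reads. In all, 21 comparisons were made over the 7 pairs. With 3 against 3 libraries an exact two-sided permutation test cannot go below p = 0.1, which was reached wherever the groups did not overlap (adjusted p = 0.13), so none passed a threshold of 0.05.

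**Figure D4:**
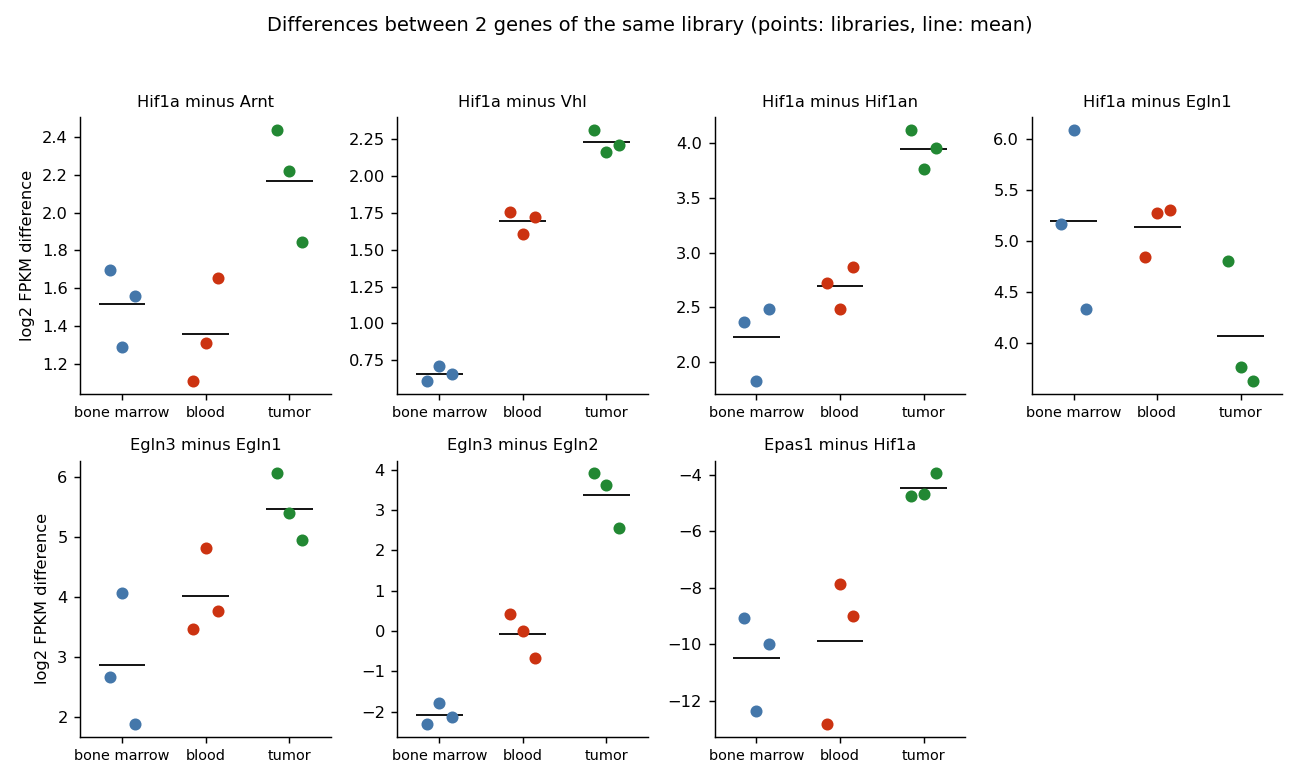
Differences in log2 reads per kilobase of exon between 2 genes of the same library (y axis, labelled log2 FPKM difference, 1 panel for each of 7 pairs), with points for libraries and a line for the mean of the 3 libraries of bone marrow, blood and tumor. Hif1a minus Vhl climbs from a mean of 0.66 through 1.70 to 2.23 with narrow scatter, and Egln3 minus Egln2 from -2.08 through -0.09 to 3.37.

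Plain library totals and median centring move all genes of a library together, so they shifted every member alike. The fitted differences of Egln3, Epas1 and Egln1 between tumor and each other compartment were above 0 under all 4 scalings, and those of Hif1an and Egln2 below 0. The sign of Hif1a over blood changed with median centring only, that of Vhl over blood with plain library totals, and that of Arnt with totals and quantile normalization over blood and with median centring over bone marrow. Without the third tumor library, the one richest in epithelial and acinar markers, 4 members were higher and 1 lower against blood, and 4 higher and 0 lower against bone marrow. The median of all genes was 0.33 and 0.10 in this fit, near the 0.32 and 0.09 with all libraries. The share of all genes called in it is not given here, so these counts are a description only.

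**Figure D5:**
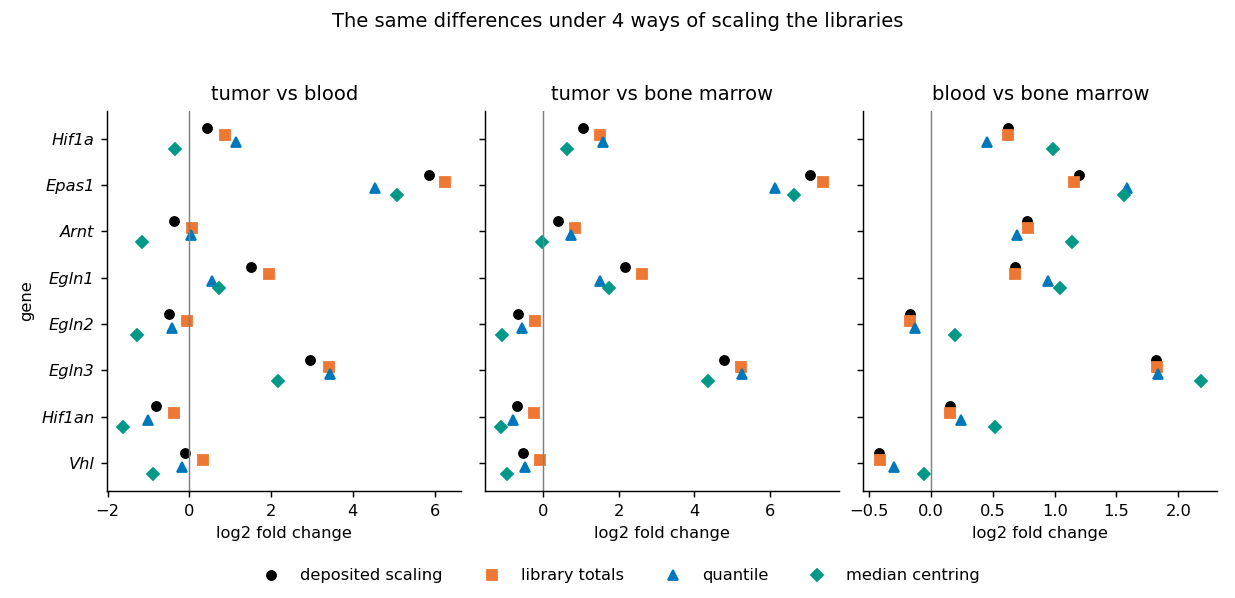
Log2 fold changes (x axis) of the 8 members tested in the 3 comparisons under 4 scalings of the libraries, the deposited one, plain library totals, quantile normalization and median centring. For Hif1a in tumor over blood the points straddle 0 (from -0.36 upwards), whereas for Egln3 the lowest is 2.17.

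The other parts of the pathway were followed with fixed lists, given as counts of genes past the same threshold. Of all genes tested, 39.2% were higher and 27.1% lower in tumor than in blood, and 30.0% and 25.8% against bone marrow. The counts of short lists are a description beside these shares, which hold for the deposited scaling only. Under the other scalings all genes shifted too. Over blood their median was 0.76 with plain library totals, -0.22 with quantile normalization and -0.46 with median centring, and over bone marrow 0.54, -0.25 and -0.33. With median centring 5617 of the 13014 genes were lower than in blood, and with plain library totals 2161 were lower than in bone marrow. Of the 8 partners of VHL in its ligase, 1 was higher and 4 lower in tumor than in blood, and likewise against bone marrow. Cul2, the cullin scaffold, was the one that rose, by 2.36 ± 0.31 over blood (log2, SE, adjusted p = 7.9e-05) and 0.96 ± 0.31 over bone marrow (adjusted p = 0.024, not past the threshold with median centring). Nedd8, the modifier that activates cullins, was lower against both (log2 difference -0.86 each, adjusted p = 0.0096 and 0.012). The E2 enzymes Ube2d1 and Ube2d2a were lower against blood (-0.62 and -0.44, adjusted p = 0.038 and 0.016). None of these 3 decreases passed with plain library totals, under which 3 partners were higher and 0 lower than in blood and Ube2d2a was at 0.01, and 2 were higher and 0 lower than in bone marrow. Over blood, quantile normalization gave 2 higher and 3 lower, and median centring 1 higher and 6 lower. The list's median was -0.45 over blood, against 0.32 for all genes.

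Of 14 tested genes that control HIF stability otherwise, 7 were higher and 1 lower in tumor than in blood, and 4 were higher and 4 lower than in bone marrow. Over all genes the shares were 39.2% higher and 27.1% lower than in blood, and 30.0% and 25.8% against bone marrow. Hsp90aa1, a chaperone that binds HIF-1α, rose by 2.86 over blood and 2.10 over bone marrow (adjusted p = 4.3e-07 and 3.2e-06). Usp20, a deubiquitinase that acts on HIF-1α, rose by 1.59 over bone marrow (adjusted p = 0.0071). Siah2, a ligase that targets prolyl hydroxylases, had 10 to 38 reads in tumor, 0 to 4 in blood and 1 to 9 in bone marrow. Its call over blood was lost with median centring, quantile normalization and the replicate block (adjusted p = 0.080, 0.35 and 0.051). Siah2 did not pass over bone marrow (adjusted p = 0.079). Cops5, a subunit of the COP9 signalosome, rose by 0.96 over blood (adjusted p = 7.3e-04, not past the threshold with median centring). Os9, an ER lectin also reported to bind HIF-1α, was lower than in blood (-0.83, adjusted p = 6.9e-05). Usp33, a deubiquitinase, was lower than in bone marrow (-0.99, adjusted p = 0.0015, not past the threshold with plain library totals). The counts depend on the scaling: median centring gave 4 higher and 4 lower over blood (beside 5617 of 13014 genes lower), and plain library totals 8 higher and 1 lower over bone marrow (beside 2161 genes lower). The list's median over blood was 0.71, and -0.08 with median centring, against 0.32 and -0.46 for all genes.

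Of 6 tested coactivators and competitors of HIF, 0 were higher and 4 lower in tumor than in blood, and 0 higher and 3 lower than in bone marrow, where 27.1% and 25.8% of all genes were lower. With plain library totals and with quantile normalization 1 was higher and 4 lower over blood, and 2 were lower over bone marrow. Ep300, the acetyltransferase whose recruitment HIF1AN blocks, had log2 differences of -1.50 over blood and -1.07 over bone marrow (adjusted p = 2.4e-05 and 3.3e-04). For Ncoa1, a p160 coactivator, they were -1.88 and -1.25 (adjusted p = 1.7e-05 and 3.8e-04). For Crebbp, the gene of CBP, they were -1.08 and -0.65 (adjusted p = 2.9e-04 and 0.0087), the latter not past the threshold with plain totals or quantile normalization. Ncoa2 was also lower against blood (-1.27, adjusted p = 3.8e-04). The list's median was -1.18 over blood, and at -0.73 with plain totals and -1.96 with median centring it stayed below the median of all genes.

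Relatives of ARNT mostly had few reads: of 11 bHLH-PAS genes listed, 4 were tested, of which 1 was higher in tumor than in blood and 3 were higher than in bone marrow. Among all genes 39.2% and 30.0% were higher in these comparisons. Arntl2, a clock-related partner, had 0 to 1 reads in bone marrow, 0 to 2 in blood, against 72 to 174 in tumor. Ahr, the aryl hydrocarbon receptor and a competitor for ARNT, rose by 2.64 over bone marrow (adjusted p = 1.9e-04), with 12 to 23 reads in bone marrow, 93 to 127 in blood, against 60 to 193 in tumor. Arntl rose by 1.06 over bone marrow (adjusted p = 0.024), a call lost with median centring and quantile normalization. Arnt2, the close paralogue of Arnt, had at most 1 read in any library.

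Other enzymes that use oxygen in related chemistry moved in both directions. Of 7 tested, 5 were higher and 2 lower in tumor than in both blood and bone marrow. For all genes, 39.2% were higher and 27.1% lower than in blood, and 30.0% and 25.8% against bone marrow. The collagen hydroxylases Plod2 (0 reads in bone marrow, 0 to 1 in blood, 68 to 244 in tumor) and P4ha2 (0 reads, 0 to 3 and 88 to 171) appeared in tumor, where fibroblast markers also did, and the part of fibroblasts was not tested. Plod3 and Plod1 were lower, with log2 differences of -1.32 and -1.10 over blood (adjusted p = 3.6e-06 and 0.0023) and -1.32 and -0.82 over bone marrow (adjusted p = 4.2e-06 and 0.015, Plod1 not past the threshold with plain totals). The list's median was 2.94 over blood and 4.45 over bone marrow, or 4.15 with the 3 genes at 0 in bone marrow set to their bound.

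Of 8 tested regulators of Hif1a transcription or translation, 0 were higher and 4 lower in tumor than in blood, 0 higher and 2 lower than in bone marrow, and 4 higher and 0 lower in blood than in bone marrow. In the same order, 39.2%, 30.0% and 17.8% of all genes were higher and 27.1%, 25.8% and 24.7% lower. With median centring 8 were lower over blood, beside 5617 of all 13014 genes. Over bone marrow plain library totals gave 1 higher and 0 lower, beside 2161 of all genes lower, and quantile normalization 1 higher and 1 lower. Akt1 and Stat3 had log2 differences of -2.17 and -1.42 over blood (adjusted p = 4.4e-07 and 4.5e-06). Against bone marrow their log2 differences were -0.56 and -0.57 (adjusted p = 0.0041 and 0.0028), and neither passed with plain library totals. Nfkb1 and Rela, NF-κB subunits known to drive Hif1a transcription, were at -1.16 and -0.60 over blood (adjusted p = 0.0012 and 0.021), Rela not past the threshold with plain totals or quantile normalization.

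Of 26 tested genes known as HIF targets, other than Egln1 and Egln3, 21 were higher and 3 lower in tumor than in blood, and 21 higher and 3 lower than in bone marrow. The shares of all genes were 39.2% higher and 27.1% lower than in blood, and 30.0% and 25.8% against bone marrow. The list's median log2 difference was 1.71 over blood and 2.30 over bone marrow, against 0.32 and 0.09 for all genes. In blood against bone marrow 9 were higher and 7 lower, beside 17.8% and 24.7% of all genes, with a median of 0.09. With median centring the count over blood was 15 higher and 4 lower, beside 5617 of all 13014 genes lower. Car9, a carbonic anhydrase, had 10 to 17 reads in bone marrow, 0 to 2 in blood, against 667 to 1220 in tumor. Adm, the gene of the vasodilator peptide adrenomedullin, had 58 to 128 reads in tumor, against 0 to 1 in each of the other 6 libraries. The same 3 tumor libraries held the epithelial (2742 to 5198 RPM), fibroblast (1209 to 1389 RPM) and acinar markers (794 to 2950 RPM), and the part of those cells in the higher targets was not tested. The 3 that fell against blood included Pfkfb4, an activator of glycolysis (-2.83, adjusted p = 1.1e-07, with -1.85 and adjusted p = 9.5e-07 relative to bone marrow), and Narf (-1.52, adjusted p = 8.1e-06). Mxi1, a MYC antagonist, was among the lowest against bone marrow (-1.10, adjusted p = 1.4e-04).

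The genes whose log2 FPKM most resembled that of a member over the 9 libraries are given as a description, since compartments and library scaling are shared by all points. For Egln3 they were Creb5 (Pearson r = 0.995), Ski (0.994) and Odc1 (0.991), each with its lowest mean in bone marrow and its highest in tumor. For Hif1a they were Ergic2 (0.977), Arih2 (0.976) and Nhlrc3 (0.971), and for Egln1 Rnps1 (0.977), Dock4 (0.965) and Isca1 (0.962). For Epas1 they were Fhl2 (0.988), Gsta4 (0.987) and Xist (0.983), all 3 with at most 5 reads in any bone marrow or blood library. Among the members, Hif1a and Egln3 were the most alike (r = 0.903 over 9 libraries), followed by Epas1 and Egln3 (0.879).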

How the data were processed

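RNA was sequenced from sorted neutrophils of bone marrow, blood and tumor (9 libraries, 3 per compartment, SMARTSeq v2, unstranded). The authors mapped reads with STAR 2.5.2b to GRCm38, counted them with featureCounts 1.5.0 on GENCODE M7 and deposited log2 FPKM values for 46517 genes. edgeR 3.8.6 is also named in the submitters' processing notes. Whole reads were recovered from these values for all 46517 genes (tolerance 0.0001 reads); a constant of 0.143 to 0.287 reads had been added, and the FPKM length equalled the genomic span for 84.5% of the 46005 identifiers found in GENCODE M21. Positions and exon lengths are from M21 on GRCm38. Exon RPKM divides the recovered reads by union exon length and by the authors' scaled library size, with no constant added.

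A gene needed 10 or more reads in 3 or more libraries, which left 13014. The model was fitted in limma 3.58.1 (R 4.3.3) with lmFit and a trended eBayes, 1 coefficient per compartment and 3 contrasts, on log2 FPKM without the length term, with Benjamini-Hochberg adjustment over all genes tested and a threshold of 0.05. A filter on FPKM itself would remove long genes such as Egln1 and Epas1. The fit was tested on simulated data. Fitted fold changes include the authors' constant. For genes with few reads they depend on it and can differ from the ratio of summed reads, as those of Epas1 do. Pairs of members were compared with exact two-sided permutation tests (SciPy 1.17.1). Counting intervals (95%) and the floor of 3 reads cover counting error only, without correction for PCR duplicates. The 3 libraries of a compartment are the replicates, so p-values measure the spread between these libraries. Each comparison was refitted under 22 alternatives (filter, scaling, constant, variance model, limma-voom, replicate block, libraries left out).

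The members, gene lists, pairs and tests were chosen with earlier results of these data known. Named list genes are those with the 2 highest and the 2 lowest signed log2 differences among the called genes of a list, in tumor against blood and against bone marrow, so in a list called in 1 direction they include the smallest changes, and likeness names the 3 genes with the highest r; genes with few reads are given by reads, and some genes that this rule names are not reported here. Arnt2 and the antisense gene Gm15283 were named after their values were seen. No sequences of proteins were used here.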

Additional observations from a re-analysis of the deposited data

How the results depend on the processing

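Of the member calls, those of Egln3 in all 3 comparisons, Hif1a and Arnt in blood against bone marrow, Hif1a, Egln1 and Epas1 in tumor against bone marrow, and Epas1 in tumor against blood kept their direction and their side of the threshold in all alternatives that could be computed. The calls of Epas1 are for a gene that met the read filter only through the tumor libraries. With the filter on log2 FPKM, Epas1 and Egln1 were not tested, and the genes higher in tumor numbered 2206 over blood and 1763 over bone marrow, those lower in blood than in bone marrow 1890, and the members higher in tumor 1 over blood and 3 over bone marrow, because fewer genes were tested. With the filter of 5 reads in any library and with none, Hif3a was fitted, at 4.33 higher in tumor on the log2 scale (limma adjusted p from 0.031 to 0.041). It entered only through tumor libraries 2 and 3 (24 and 26 reads, 0 in all others). The 4.33 therefore depends on the added constant, and the adjusted p is no separate support for a difference. With no filter 1 member was lower in tumor than in blood. With plain library totals 0 members were lower in tumor than in either other compartment, 2161 genes were lower than in bone marrow, Arnt over blood was 0.065 and Vhl over blood 0.34. With quantile normalization 1 member was lower in tumor against blood and 1 against bone marrow, and Arnt over blood was 0.038. With median centring 2 members were higher and 4 lower than in blood, 5617 genes were lower than in blood and 2100 lower in blood than in bone marrow, and Hif1a over blood was -0.36, Arnt over bone marrow -0.029 and Egln2 in blood over bone marrow 0.19. Without the trend 1 member was lower in tumor against blood and 0 against bone marrow, and with only the 2 compartments 1 member (Vhl) was lower in blood than in bone marrow. The causes of these changes were not tested beyond the settings' own construction.

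Leaving out each library in turn gave 2 to 4 members higher and 1 to 2 lower in tumor than in blood, 4 to 5 higher and 0 to 3 lower when tumor was set against bone marrow, and 3 to 4 higher and 0 to 1 lower for blood against bone marrow. The shares of all genes called in each of these fits are not given here, so the counts are a description only. Over these fits Vhl in tumor over blood ranged from -0.23 to 0.067 (0.0097 without blood library 3, 0.067 without tumor library 3) and Egln2 in blood over bone marrow from -0.39 to 0.26 (without blood library 1). Within libraries, Hif1a minus Egln1 in blood over bone marrow ranged from -0.49 to 0.39 (0.39 without bone marrow library 2, 0.09 without blood library 1), and Epas1 minus Hif1a from -0.44 to 2.04 (-0.37 without bone marrow library 2, -0.44 without blood library 2). The paper describes the compartments as coming from the same mice, pooled in independent experiments, so they may be paired. The labels do not tie replicate numbers to experiments. Libraries with the same number did not deviate together (r from -0.14 to 0.08, against -0.14 to 0.14 for different numbers). With 3 libraries per compartment this cannot show that pairing is absent. The main fit did not pair them, and the replicate block does so by number. With the replicate block 8598 genes were called in tumor against blood (8626 without), 7265 in tumor against bone marrow (7264) and 5534 for blood over bone marrow (5532), Hif1a over blood lost its call (0.43, adjusted p = 0.059) and Egln2 in tumor against bone marrow gained one (-0.67, adjusted p = 0.040). Depth limits Epas1 and Hif3a outside the tumor, where 0 to 6 reads were found, and Egln1 in bone marrow.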

Other observations

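Xist, the RNA of the inactive X chromosome in female cells and one of the 3 genes most like Epas1, had 0 to 5 reads in the bone marrow and in the blood libraries and 822 to 1507 in the tumor libraries. The Y-linked gene Ddx3y had 463 to 589 reads in bone marrow, 377 to 489 in blood, against 591 to 1101 in tumor, and Eif2s3y had 920 to 1185, 862 to 986 and 597 to 1136. Both kinds of RNA were thus present in the tumor libraries, while Xist was nearly absent elsewhere. The study's methods name male and female mice, and the part of cells of another origin in the tumor values was not tested. These genes, beside Xist, were chosen after its values were seen.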
